A study of Homo sapiens with 41 samples.

Results

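The genes described here encode Elongin A, its partners, and the rest of the machinery that RNA polymerase II (RNAPII) uses to elongate transcripts. They were chosen by name, and are 47 of the 20175 protein-coding genes of the annotation: the 3 Elongin subunits, 5 genes of the PAF1 complex, 4 genes for SPT4, SPT5, SPT6 and IWS1, 2 for the histone chaperone FACT, 2 for TFIIS, 7 for the super elongation complex, 5 for P-TEFb and its 7SK partners, 4 for NELF, 3 for CDK12, CDK13 and cyclin K, and 12 for RNAPII subunits. The question was whether Elongin A was itself found at these genes. Elongin A was mapped in cells of DLD1, an established line from a human colon cancer, which were wild type, received no siRNA and were fixed with formaldehyde. In CUT&RUN, an antibody guides a nuclease that releases the DNA around its target, and 2 samples with a goat antibody to Elongin A had 1 goat IgG sample as their control, while 1 sample with a mouse antibody had 1 mouse IgG sample. ChIP-seq, in which fixed chromatin is precipitated with the antibody, was done in 1 sample, with 1 input sample as its control. All 7 samples thus share 1 cell line and 1 untreated state, and no library of cells depleted of Elongin A is part of these peak lists.

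Elongin is a complex of Elongin A, which stimulates elongation by purified RNAPII in vitro, with the small proteins Elongin B and Elongin C, and it can also join a ubiquitin ligase. After initiation, RNAPII is held close to the start by NELF and by SPT4 with SPT5, until the kinase P-TEFb, often brought by the super elongation complex, releases it. The PAF1 complex, SPT6, FACT, TFIIS and the kinases CDK12 and CDK13 then travel with the polymerase or act on it in the gene body.

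The deposited lists held 8720 peaks for the goat antibody, 2338 for the mouse antibody and 186 for ChIP-seq, as single lists with no value per replicate. The study describes the enrichment in its Elongin A ChIP-seq as inefficient. Each peak has a fold enrichment, which is the ratio of its signal to the local background in the control, and a −log10 q-value, which is larger the more firmly the peak was called. The lists contain no read totals, so the depth is unknown and a gene without a peak is only a gene where none was called. The goat antibody replicates are not separate, so no value below has a replicate error and differences between peaks cannot be set against one. A gene was counted when a peak overlapped it, with 1 kb added on either side, by at least 1 bp. Positions are on hg19 (GRCh37) and count from 1.

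Elongin A peaks were called at a minority of these genes, as they were at a minority of all coding genes. None was called at the 3 genes of Elongin itself, which are too few to set apart from that background. The goat antibody had a peak at 12 of the 47 genes, or 25.5% with a 95% Wilson interval of 15.3% to 39.5%, against 21.7% of all coding genes. The mouse antibody had a peak at 8 genes, 17.0% with an interval of 8.89% to 30.1%, against 7.79% of all coding genes. ChIP-seq had a peak at 1 gene, 2.13% with an interval of 0.377% to 11.1%, against 0.783%. Peaks of both antibodies occurred at 4 genes, 8.51% with an interval of 3.36% to 19.9%, against 4.74%. The goat and ChIP-seq shares and the share with both antibodies had intervals that contain the value for all coding genes, and the mouse antibody share had an interval that lies above it. The latter did not hold with 5 kb margins, at a fold enrichment of at least 5, or without peaks near another coding gene. These intervals cover counting error only and treat neighbouring genes as separate, and the difference from all coding genes was not tested.

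Peaks at start sites were counted in the same way, within 1 kb of the start of any annotated transcript of the gene. The goat antibody had such a peak at 10 genes, 21.3% with an interval of 12.0% to 34.9%, against 11.9% of all coding genes. The mouse antibody had one at 6 genes, 12.8% with an interval of 5.98% to 25.2%, against 3.98%. Some of these peaks sit in a start region that a neighbouring gene shares. Without peaks that also lie within 1 kb of another coding gene, 6 of the 47 genes still had a goat antibody peak, against 15.3% of all coding genes, 5 had one at a start site, against 7.32%, and 5 had a mouse antibody peak, against 5.49%. Both counts of 5 are a share of 10.6% with an interval of 4.63% to 22.6%, which contains the value for all coding genes. With all peaks, the goat antibody interval at start sites lay just above that value. It contained the value at q-values under 0.01 and under 0.001 and at a fold enrichment of at least 5. At a q-value under 0.01, 8 genes had a goat antibody peak at a start site, against 10.8% of all coding genes.

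**Figure D1:**
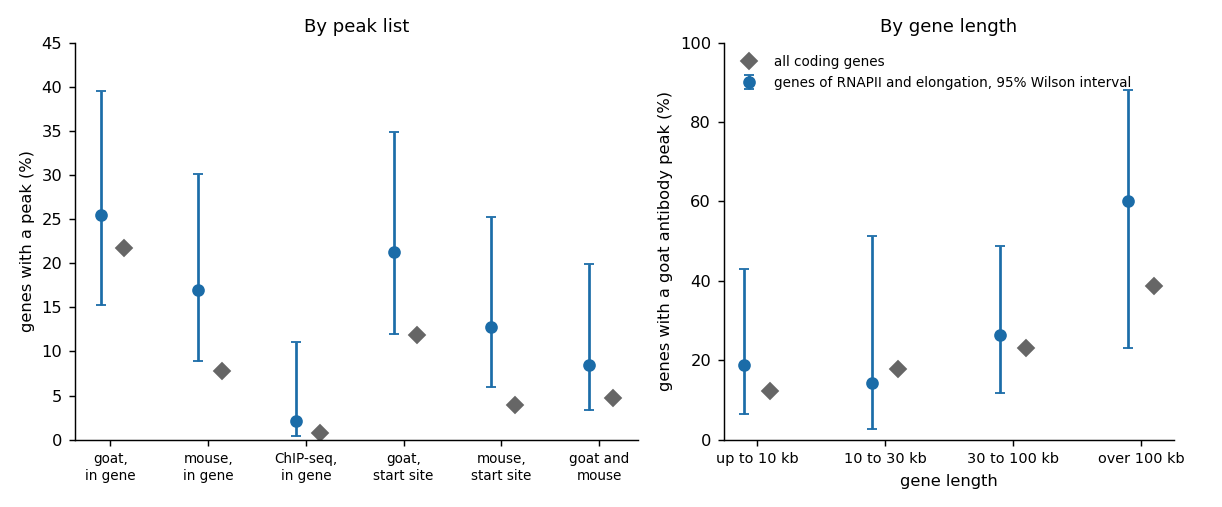
Percent of genes with an Elongin A peak, for the 47 genes (circles, with 95% Wilson intervals) and for all 20175 coding genes (diamonds). On the left are the 6 ways of counting, from 25.5% for the goat antibody anywhere in the gene to 2.13% for ChIP-seq; on the right is the goat antibody by gene length, where both sets of genes reach their highest share over 100 kb, at 60.0% and 38.8%.

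In all, 17 genes had a peak in at least 1 list and 30 had none. The goat antibody alone marked 8 genes, the mouse antibody alone 4, and the 1 ChIP-seq gene had no CUT&RUN peak. Over all 20175 coding genes, 4378 had a goat antibody peak and 1571 a mouse antibody peak, and 957 of these had both. Genes with a peak in any of the 3 lists, or in none, were not counted over all coding genes. The genes held 35 goat antibody peaks with a median fold enrichment of 4.15, close to the 4.32 of all goat antibody peaks, and a range of 2.60 to 7.22. Of these peaks, 4 were in the top 20% of the list by fold enrichment and 9 in the bottom 20%. The strongest goat antibody peak of each gene had a median of 5.12 over the 12 genes, and 4.66 over the 4378 coding genes with a peak, whose interquartile range ran from 3.89 to 5.69. The 9 mouse antibody peaks had a median of 4.53, against 4.36 for all mouse antibody peaks. The peaks were thus of ordinary height for their lists, with POLR2A and CTR9 the highest.

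**Figure D2:**
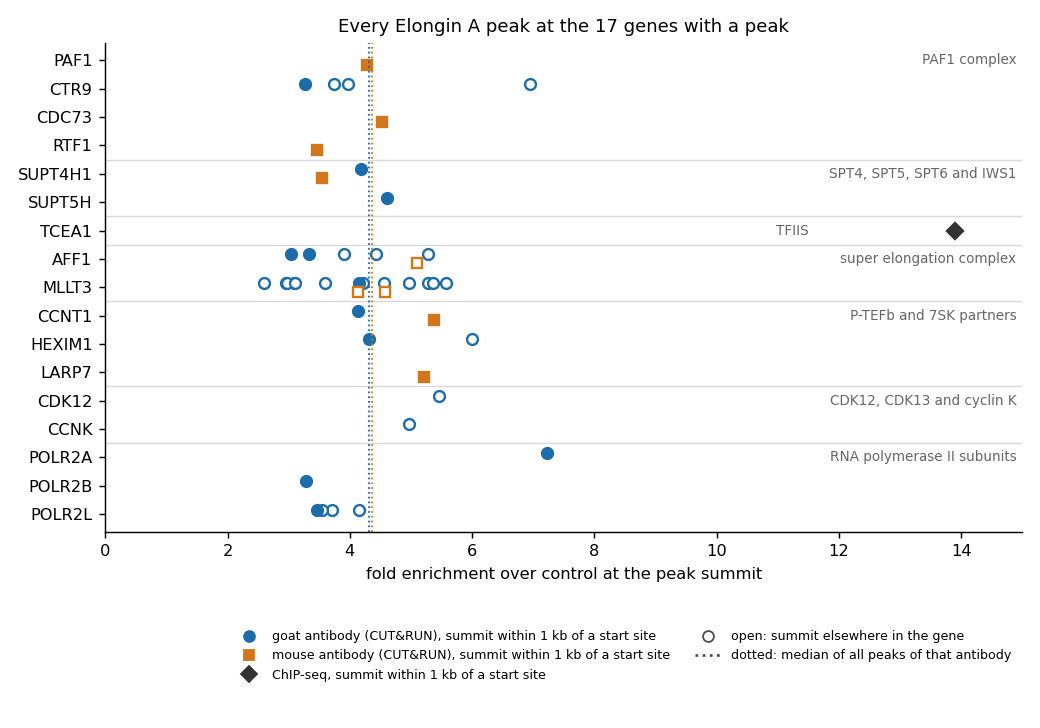
Fold enrichment over control of every peak at the 17 genes with a peak, by gene and complex (circles, goat antibody; squares, mouse antibody; diamond, ChIP-seq; filled symbols have the summit within 1 kb of a start site of the gene). Most points lie near the medians of their lists, 4.32 and 4.36, drawn as dotted lines, and the ChIP-seq peak of TCEA1 at 13.9 belongs to a list with its own scale.

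The DNA under 5 of the stronger goat antibody peaks shows the kinds of place where peaks were called. Each stretch is the 160 bases around a summit on the strand of the gene, 5′ to 3′, from the GRCh37 assembly. They are the 5 genes with the highest fold enrichment that had such a window free of annotated untranslated regions, which left out POLR2A, HEXIM1 and CDK12. Capitals mark a CCAAT box (CCAAT), searched on both strands. The other words named further on did not occur in these stretches. The stretches are chr11:10816864-10817023 (plus strand) for CTR9, chr9:20619609-20619768 (minus strand) for MLLT3, chr4:87898820-87898979 (plus) for AFF1, chr14:99989509-99989668 (plus) for CCNK, and chr19:39926338-39926497 (plus) for SUPT5H.
CTR9: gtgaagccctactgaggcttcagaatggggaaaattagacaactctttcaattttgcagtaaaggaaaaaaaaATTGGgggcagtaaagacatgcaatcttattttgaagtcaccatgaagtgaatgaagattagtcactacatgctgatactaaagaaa
MLLT3: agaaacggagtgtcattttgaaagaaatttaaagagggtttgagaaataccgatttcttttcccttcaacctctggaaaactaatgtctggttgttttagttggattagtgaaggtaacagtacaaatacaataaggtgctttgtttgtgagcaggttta
AFF1: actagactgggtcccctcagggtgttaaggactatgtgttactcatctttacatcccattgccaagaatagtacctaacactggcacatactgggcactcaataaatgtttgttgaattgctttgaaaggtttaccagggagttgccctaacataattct
CCNK: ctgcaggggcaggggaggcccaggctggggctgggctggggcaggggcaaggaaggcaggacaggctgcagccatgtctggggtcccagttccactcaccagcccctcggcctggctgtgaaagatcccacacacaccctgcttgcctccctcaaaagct
SUPT5H: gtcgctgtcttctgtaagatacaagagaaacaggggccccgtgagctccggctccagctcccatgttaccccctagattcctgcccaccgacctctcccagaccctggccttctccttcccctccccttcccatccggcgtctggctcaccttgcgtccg
The intronic stretches of MLLT3 and AFF1 had 35.0% and 41.9% G or C with 2 and 0 CG pairs, and that of CTR9 had 36.2% and 0. The start-site stretch of SUPT5H had 62.5% with 8 CG pairs. The CCNK stretch was the richest in G and C, at 66.9%, but held 1 CG pair.

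None of the 3 Elongin genes had a peak in any list. As only 21.7% of all coding genes had a goat antibody peak, this absence does not set them apart from other genes. ELOA, which encodes Elongin A (chr1:24069938-24088549), had its nearest goat antibody peak 199 kb downstream, with a fold enrichment of 4.38, and its nearest mouse antibody peak 250 kb downstream. ELOB, the gene of Elongin B (chr16:2821415-2827290), had a goat antibody peak 2.56 kb past its end, with a fold enrichment of 4.47. ELOC, the gene of Elongin C (chr8:74851404-74884542), had one 3.85 kb past its end, with a fold enrichment of 3.29. The peaks near ELOB and ELOC lay outside the 1 kb margin and inside a margin of 5 kb, which brought the number of genes with a goat antibody peak to 16 against 24.9% of all coding genes. ELOA had no peak under either margin.

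In the PAF1 complex, the mouse antibody had a peak at 3 of 5 genes and the goat antibody at 1, and no gene had both. Over all coding genes these shares were 7.79%, 21.7% and 4.74%, and with 5 genes the difference was not tested. PAF1, the subunit that names the complex, had a mouse antibody peak at chr19:39881361-39881659 with a fold enrichment of 4.28 and a −log10 q-value of 2.13. Its summit lay 329 bp past the canonical start and 526 bp upstream of the nearest start of MED29, a Mediator subunit gene that runs the other way, so the peak cannot be assigned to 1 of the 2 genes. CDC73, which encodes parafibromin, had a mouse antibody peak over the coding part of its first exon (chr1:193091392-193091732), with a fold enrichment of 4.53. RTF1 had a mouse antibody peak with a fold enrichment of 3.47, 57.8 kb from its canonical start in intron 9, and 249 bp past the start of a shorter annotated transcript. The nearest goat antibody peaks were 7.69 kb from PAF1, 562 kb from CDC73 and 5.99 kb from RTF1.

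CTR9, the scaffold of the PAF1 complex, was the gene of this complex with goat antibody peaks, and it had 4. One lay just before its start at chr11:10772341-10772602, with its summit 191 bp upstream and a fold enrichment of 3.26 and a −log10 q-value of 1.82. The other 3 lay past the end of the canonical CTR9 transcript, 44.2, 45.9 and 47.3 kb from its start, under longer annotated transcripts of CTR9 that run into EIF4G2, a translation initiation factor gene on the opposite strand that ends there. The first of them (chr11:10816664-10817784) began 812 bp past the end of EIF4G2 and had the second highest fold enrichment of all goat antibody peaks at the 47 genes, 6.95 with a −log10 q-value of 9.64. The other 2 had 3.74 and 3.97, and the last is the only summit at these genes whose 32 bp have more than 1 exact copy in the genome, with 2. The latter 2 had their summits inside EIF4G2, 131 and 1530 bp before its end. Signal counted for CTR9 at these 3 peaks cannot be told apart from signal of EIF4G2. LEO1, another gene of the complex, had no peak, and its nearest was a goat antibody peak 6.17 kb downstream with a fold enrichment of 7.31.

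Of the genes for SPT4, SPT5, SPT6 and IWS1, the first 2 had goat antibody peaks at a start site, against 11.9% of all coding genes. SUPT4H1, the gene of SPT4, had peaks of both antibodies at the same place. Its goat antibody peak (chr17:56429829-56431302) had a fold enrichment of 4.19 and a −log10 q-value of 7.05. The mouse antibody peak lay wholly within it, over 408 bp, with a fold enrichment of 3.55 and a −log10 q-value of 1.98, and the summits were 47 bp apart. Both summits were upstream of the canonical start, by 594 and 641 bp, and inside the first part of a longer transcript. These summits were also 881 and 834 bp past the end of RNF43, a ubiquitin ligase gene. A peak at SUPT5H, the gene of SPT5 (chr19:39926018-39926456, fold enrichment 4.61), lay 378 bp upstream of its most distal start but 9804 bp upstream of the canonical start. The whole peak lay inside RPS16, a ribosomal protein gene on the other strand, with its summit 171 bp past the canonical RPS16 start. SUPT5H was the 1 gene that had no goat antibody peak without the 1 kb margin. SUPT6H, encoding a histone chaperone of elongating RNAPII, and its partner gene IWS1 had no peak in any list, with the nearest goat antibody peaks 16.7 and 174 kb away.

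The FACT genes SUPT16H and SSRP1 had no peak in any list, like most coding genes, of which 21.7% had a goat antibody peak. Their nearest goat antibody peaks were 72.4 and 376 kb away. TCEA1, which encodes the TFIIS that restarts RNAPII by stimulating cleavage of its transcript, had the only ChIP-seq peak of the 47 genes. The peak (chr8:54934727-54935109) covered the first exon, with its summit 31 bp upstream of a start and 91 bp past the canonical one. It had a fold enrichment of 13.9 and a −log10 q-value of 45.2, against list medians of 9.99 and 22.0, and ranked 56 of 186. No goat or mouse antibody peak was within 20 kb of TCEA1, as the nearest of each was 20.9 kb downstream. The related gene TCEA2 had no peak.

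The super elongation complex had the most peaks of any group, 18 with the goat antibody and 3 with the mouse antibody, all at AFF1 and MLLT3. The genes of ELL, ELL2 and ELL3, which stimulate elongation, of the scaffold AFF4 and of MLLT1, a reader of acylated histones, had none. MLLT3, a relative of MLLT1, is the longest of the 47 genes at 281 kb and had 13 goat antibody peaks. Their fold enrichments ran from 2.60 to 5.57 with a median of 4.15, 5 of 13 were at or above the median of the list, and 1 was in its top 20%. One peak lay 273 bp upstream of the start, 11 lay in intron 2 and 1 in intron 5. Summits were a median of 9.04 kb apart. The strongest (chr9:20619577-20620048) was 2.81 kb from the canonical start. The mouse antibody had 2 peaks in intron 2, with fold enrichments of 4.13 and 4.57, and each overlapped a goat antibody peak, by 249 and 149 bp with summits 8 and 168 bp apart. These 2 goat antibody peaks were low, with fold enrichments of 3.60 and 2.60. The latter was the lowest at the 47 genes, with a −log10 q-value of 1.39.

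AFF1, the other scaffold, spans 206 kb and had 5 goat antibody peaks, with fold enrichments of 3.03 to 5.28. The strongest (chr4:87898237-87899031, −log10 q-value 14.1) lay in intron 2, 42.7 kb from the canonical start. A further 2 were near annotated starts, with summits 233 and 271 bp upstream of them, 1 was in intron 2 at 90.6 kb, and 1 was in intron 8. The mouse antibody peak of AFF1 was also in intron 8, with a fold enrichment of 5.10, but did not overlap a goat antibody peak: 3330 bp lay between them. AFF1 is therefore counted for both antibodies without a shared place.

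**Figure D3:**
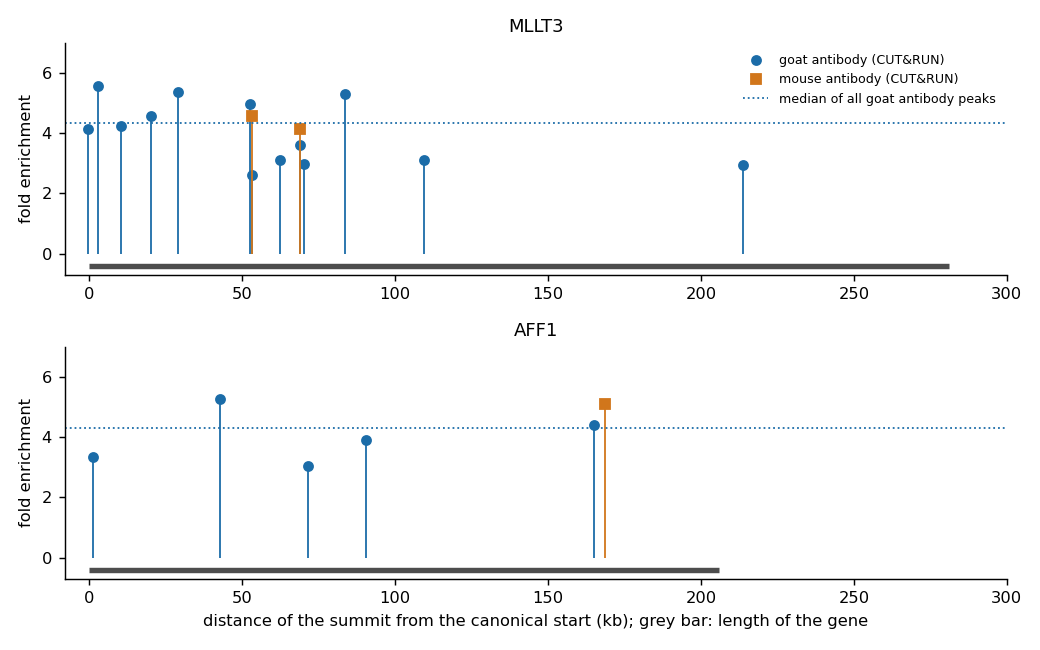
Fold enrichment of the Elongin A peaks of MLLT3 and AFF1 against the distance of the summit from the canonical start in kb (circles, goat antibody; squares, mouse antibody; grey bar, the gene; dotted line, the goat antibody median of 4.32). Of the 13 goat antibody peaks of MLLT3, 12 lie in the first 110 kb, while the 5 of AFF1 are spread over 164 kb.

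A longer gene offers more places for a peak. The share of coding genes with a goat antibody peak was 12.3% of those up to 10 kb, and 17.7%, 23.2% and 38.8% in the classes of 10 to 30 kb, 30 to 100 kb and over 100 kb. The genes described here had 3 of 16, 1 of 7, 5 of 19 and 3 of 5 in these classes, and each of these 4 shares had a Wilson interval containing that of all coding genes. With the mouse antibody they had 2 of 16, 2 of 7, 1 of 19 and 3 of 5, against 4.18%, 5.98%, 8.50% and 14.5% of all coding genes. Here the intervals of the 10 to 30 kb class, 8.22% to 64.1%, and of the class over 100 kb, 23.1% to 88.2%, lay above the value for all coding genes. Their median length was 30.2 kb, against 27.2 kb for all coding genes. Among long genes, MLLT3 was dense in peaks. It had 4.60 goat antibody peaks per 100 kb with its margins, where the median of coding genes over 100 kb with a peak was 0.736, and 22 of the 3666 coding genes over 100 kb, with or without a peak, had a density at least as high as MLLT3. Only 9 coding genes had 13 or more. In stretches as long as MLLT3 beside it, 4 peaks lay upstream and 0 downstream. AFF1 had 2.40 peaks per 100 kb, with 3 peaks in the upstream and 0 in the downstream stretch.

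P-TEFb and its partners had a goat antibody peak at 2 of 5 genes and a mouse antibody peak at 2. Over all coding genes the shares were 21.7% and 7.79%, and with 5 genes the difference was not tested. CCNT1, the gene of cyclin T1, the regulatory subunit of P-TEFb, had both antibodies at its start. The goat antibody peak (chr12:49110304-49110657) had a fold enrichment of 4.13 and a −log10 q-value of 5.99, and the mouse antibody peak 5.37 and 6.23. The mouse antibody peak lay within the goat antibody one over its whole 295 bp, and the summits, 20 bp apart, fell 78 and 58 bp past the canonical start in the coding part of exon 1. CCNT1 was the 1 gene of the 47 with peaks of both antibodies at a start site and no other coding gene within 1 kb of them.

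HEXIM1, the inhibitor that holds P-TEFb in the 7SK complex, is a gene of 1 exon and 3.62 kb with a peak at each end. The peak over the start (chr17:43225354-43226578) was 1225 bp wide, with its summit 45 bp upstream and a fold enrichment of 4.32. The peak at the end (chr17:43229152-43229450) was higher, at 5.99, with its summit 158 bp before the annotated end in the 3′ untranslated region. LARP7, which binds 7SK RNA, had a mouse antibody peak with a fold enrichment of 5.21 (chr4:113558330-113558546), 187 bp past its canonical start and 335 bp upstream of the nearest start of ZGRF1, which runs the other way. Its nearest goat antibody peak was 698 kb away, the greatest distance among these genes. The gene of the kinase CDK9 had none closer than 5.73 kb, and that of cyclin T2, CCNT2, none within 509 kb.

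The 4 NELF genes, which encode the complex that holds paused RNAPII, had no peak in any list. Most coding genes had none either, as 21.7% had a goat antibody peak. NELFB had a goat antibody peak 3.63 kb past its end. Of the kinases that phosphorylate the RNAPII tail in the gene body, CDK12 had 1 goat antibody peak (chr17:37689951-37690580), with a fold enrichment of 5.46 and a −log10 q-value of 8.77. It lay 72.8 kb from the start, in the untranslated part of exon 14, the last exon of the canonical transcript. CCNK, the gene of their cyclin partner, had 1 goat antibody peak (chr14:99989015-99989715) with a fold enrichment of 4.96. Its summit was beyond the canonical CCNK transcript, inside a longer one. It was also inside CCDC85C on the other strand, 81.0 kb past the canonical start of that gene and 307 bp upstream of one of its inner starts. CDK13 had none, and its nearest peak was 17.9 kb downstream.

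Of the 12 RNAPII subunit genes, 3 had a goat antibody peak, each with 1 at a start site, and none had a mouse antibody or ChIP-seq peak. The goat antibody share over all coding genes was 21.7%. Without peaks that also lie within 1 kb of another coding gene, none of these 3 genes kept a goat antibody peak. POLR2A, the gene of the largest subunit, which carries the repeated tail of the polymerase, had the highest goat antibody peak of the 47 genes. It spanned chr17:7386930-7388536, 1607 bp over the start of the gene, with a fold enrichment of 7.22, a −log10 q-value of 19.6 and rank 431 of 8720. Its summit was 226 bp upstream of POLR2A and 123 bp past the most distal start of ZBTB4, on the other strand. The peak therefore cannot be assigned to POLR2A alone. POLR2B, the gene of the other large subunit, had one of the lower peaks, 3.29 with a −log10 q-value of 2.25, its summit 117 bp past the canonical start. This peak also lay within 1 kb of the gene NOA1. POLR2L, which encodes a small subunit that all nuclear polymerases share, is 5.17 kb long and had 4 peaks across the gene, at 3.47, 3.54, 3.70 and 4.15. Of these, 3 also lay within 1 kb of the neighbouring gene CD151 and 1 within 1 kb of TSPAN4. The peak at 3.70 had its summit beyond the canonical POLR2L transcript and 432 bp past a start of CD151. The genes POLR2C, POLR2D, POLR2E, POLR2F, POLR2G, POLR2H, POLR2I, POLR2J and POLR2K had no peak. Among them, POLR2E was the one with the closest, 4.01 kb past its end.

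**Figure D4:**
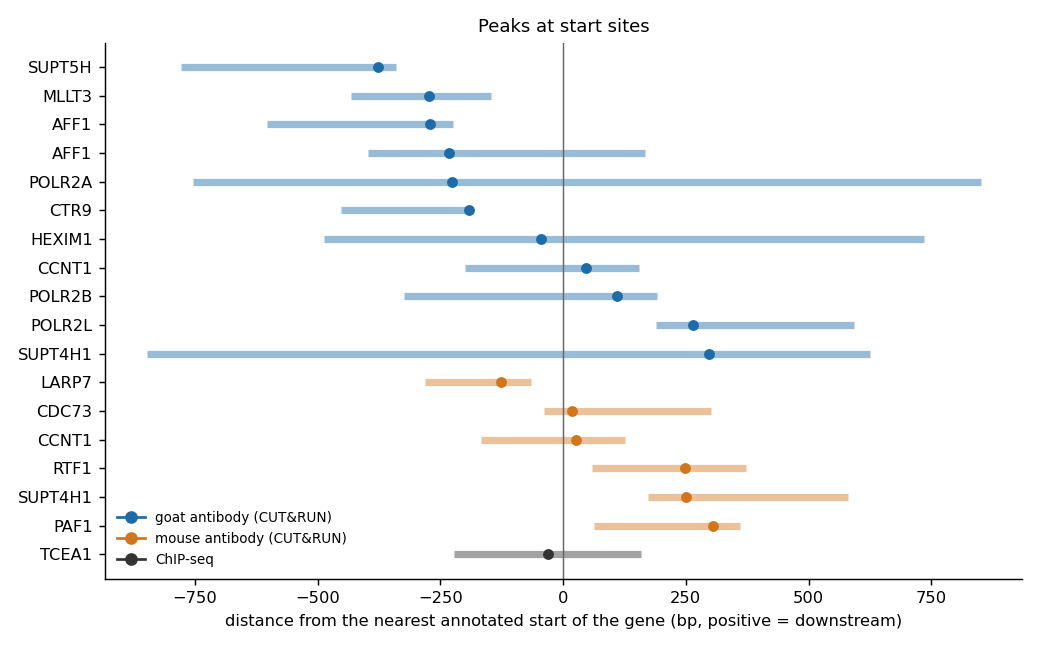
Position of the peaks at start sites of these genes, in bp from the nearest annotated start of the gene with positive values downstream (bar, extent of the peak; dot, its summit). The 11 goat antibody summits lie 45 to 378 bp from a start, 7 upstream and 4 downstream, and the peaks at POLR2A, HEXIM1 and SUPT4H1 reach well to both sides.

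Of the 35 goat antibody peaks, 11 had the summit within 1 kb of a start site of the gene, 3 in an exon and 21 in an intron. That is 31.4% at a start site of the gene itself. Of all 8720 goat antibody peaks, 2295 or 26.3% had the summit within 1 kb of any coding start. This base includes peaks away from genes, as only 6130 lay in or within 1 kb of a coding gene. The 2 shares therefore have unlike bases, and neither can be called the higher from them. The median distance of the 11 summits from the start was 233 bp. It was 242 bp for all goat antibody peaks with the summit within 1 kb of a coding start, of which 52.5% were upstream. Another coding gene started within 1 kb of the summit at 4 of the 11 peaks, those of SUPT5H, POLR2A, POLR2L and 1 of AFF1, where it was an unnamed gene that overlaps AFF1. In the whole list, 15.8% of start-site peaks lay within 1 kb of the starts of 2 or more coding genes. Of the 35 peaks, 8 were over 1 kb wide, or 22.9%, at 5 genes, against 4.51% of all goat antibody peaks. The median width was 517 bp, and 362 bp in the whole list. No test was run on the widths, as peaks of 1 gene share their source.

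At 4 of the 35 goat antibody peaks, 11.4%, a mouse antibody peak overlapped, and these were 4 of the 9 mouse antibody peaks, 44.4%. In the whole lists the shares were 8.33% of goat and 32.4% of mouse antibody peaks. By gene, 4 of the 12 genes with a goat antibody peak had the mouse antibody too, 33.3%, against 21.9% over all coding genes, and 4 of the 8 with a mouse antibody peak had the goat antibody, 50.0%, against 60.9%. The labels give each antibody its own IgG control, while the study's methods name goat IgG alone for CUT&RUN, so whether the lists share a control is not certain.

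The 35 genes without a goat antibody peak were not all far from one. The median distance to the nearest was 35.2 kb, with 4 genes within 5 kb, 9 within 10 kb and 15 farther than 50 kb. The nearest peak was downstream of the gene in 21 cases and upstream in 14. Neither distances nor sides were counted over all coding genes without a goat antibody peak. Whether they are particular to these genes is therefore unknown.

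**Figure D5:**
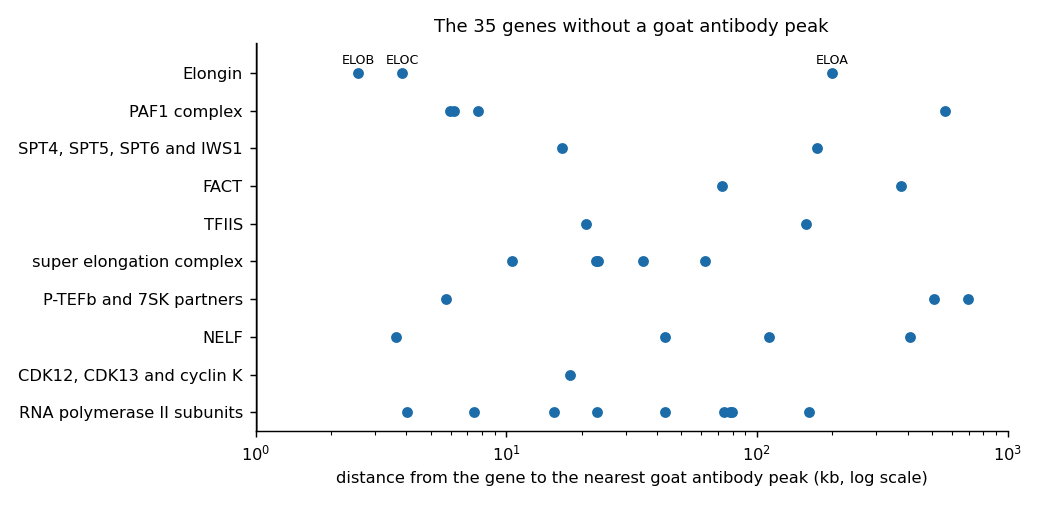
Distance from each of the 35 genes without a goat antibody peak to the nearest such peak, in kb on a log axis, by complex. The values run from 2.56 kb at ELOB to 698 kb at LARP7, and ELOA is at 199 kb.

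Other genes of transcription were counted by the same rule. Among 18 further genes of elongation and of the Elongin ubiquitin ligase, 5 had a goat antibody peak, among them TCEA3, RNF7, MEPCE and HEXIM2. MEPCE, the capping enzyme of 7SK RNA, also had a mouse antibody peak, with a fold enrichment of 5.52. The ligase gene RBX1 had a mouse antibody peak at 5.82, while CUL2, CUL5 and VHL had no peak. General transcription factor genes had a goat antibody peak at 4 of 19, cleavage and termination genes at 3 of 16, and genes of RNA polymerase I and III subunits at 5 of 19. Genes of Integrator, which cleaves nascent transcripts, had one at 6 of 14, or 42.9% with an interval of 21.4% to 67.4%, the highest share of these lists, and the interval reaches just below the 21.7% of all coding genes. ChIP-seq peaks occurred at 2 of the 16 cleavage and termination genes and at none of the genes in the other 4 lists. As 0.783% of all coding genes had one, lists this short would mostly hold none.

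Sequence under the peaks differed with their place. In 300 bp around each summit, the 11 start-site peaks had a median of 56.0% G or C and 18 CG pairs, and the other 24 had 38.8% and 2.5. All goat antibody peaks within 1 kb of a coding start had 53.0% and 11, and the others 42.3% and 3. The GC box GGGCGG was in 6 of the 11 start-site windows, 54.5%, against 31.7% of all such goat antibody windows, and the CCAAT box in 6, against 35.8%. The letters TATAAA were in 12 of the 24 other windows, 50.0%, against 25.7%. MLLT3 alone supplied 8 of the 14 windows with TATAAA over all 35 peaks. At the other genes 6 of 22 windows had it, 27.3% with start-site windows included, against 22.6% of all goat antibody windows. MLLT3 had 13 of the 35 peaks, so the G or C median of the 24 other windows also rests largely on this gene. The E box CACGTG was in 2 windows. The ETS word CCGGAAGT, the cAMP response element TGACGTCA and the YY1 word GATGGCGG were in none, and in 0.837%, 0.436% and 0.573% of all goat antibody windows. A match is a description of letters only.

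The start sites of the genes themselves, from 250 bp before to 50 bp after the canonical start, also held some of these words. CCGGAAGT was in 9 of the 47 start windows, 19.1%, against 6.17% of all coding genes, in 3 of the 12 genes with a goat antibody peak and in 6 of the 35 without. GGGCGG was in 37, 78.7%, against 61.4%, in 11 of the 12 and 26 of the 35. TATAAA was in 1 window, 2.13%, against 9.63%.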

How the data were processed

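Elongin A peaks came from CUT&RUN with a goat antibody (2 samples, 1 list) and a mouse antibody (1 sample), and from ChIP-seq (1 sample). The authors aligned reads to hg19 with Bowtie2 (2.3.4.1), removed duplicates with Picard (1.88) and called peaks with MACS2 (2.1.1) at its defaults. How the goat antibody replicates were joined is not given in the sources used here. The deposited fold enrichment is the ratio of a peak to local control background, and the deposited −log10 q-value is the one MACS2 gave each peak. Depth is unknown, so values have no precision beyond the counts.

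Genes were taken from GENCODE release 44 on GRCh37, and all 47 symbols matched 1 gene each. Every peak end lay within its GRCh37 chromosome. The genes and lists were chosen with earlier results of these data known. Named with full values were genes with peaks in 2 lists, the 10 highest by goat antibody fold enrichment, genes with a ChIP-seq peak and the Elongin genes. Sequence was shown for up to 6 of them, strongest first, and 1 stretch and 1 further gene are not reported here. Nearest peaks and neighbouring genes named beside them were added after their values were seen. No test was run, since the lists hold no replicates. On simulated peaks, 200 of 200 planted in genes and 200 of 200 planted in start windows were recovered, and 300 of 300 genes had the same peaks as a direct search. Python 3.11.15, numpy 2.4.6, pandas 2.3.3, pysam 0.24.0 and matplotlib 3.10.9 were used. The RNA and RNAPII libraries of the series were not analysed here.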

Additional observations from a re-analysis of the deposited data

How the results depend on the processing

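Each count was made again without margins, with 5 kb margins, at q-values under 0.01 and under 0.001, at a fold enrichment of at least 5, from summits, without peaks near another coding gene and, chosen after seeing the data, on canonical transcripts alone. At start sites, a window of 500 bp and the first base of the gene replaced the margins. The count of genes with a ChIP-seq peak stayed at 1 and the median of the strongest goat antibody peaks stayed between 4.73 and 5.78 in each of the 8 alternatives. A fold enrichment of at least 5 left 6 genes with a goat antibody peak (8.69% of all coding genes), 1 at a start site, POLR2A (4.06%), 3 with a mouse antibody peak (2.35%) and 1 with both, AFF1 (0.629%). A q-value under 0.001 left 6 genes with a goat antibody peak at a start site (9.26%) and 5 with a mouse antibody peak (4.22%). Leaving out peaks near another coding gene gave 6 genes for the goat antibody, 5 at start sites and 5 for the mouse antibody. Every other count was within 1.5 times the reported one. On canonical transcripts 10 genes kept a goat antibody peak (19.7% of all coding genes), with SUPT5H and CCNK lost, and 8 kept one at the canonical start (8.85%). No paired analysis was possible because the lists have no column per replicate, and for the same reason no replicate could be left out. With depth unknown, a missing peak may mean too few reads.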
